A study of Mus musculus with 42 samples.

Results

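Mast cells are granule-filled immune cells of the dermis, and 9 genes that mark them were followed across wounded and untreated mouse skin: Cma1, Mcpt4, Tpsb2, Tpsab1, Cpa3, Fcer1a, Ms4a2, Hdc and Mrgprb1. They were picked out in the data by gene symbol, from a list drawn up with earlier results of these data known, and all 9 were measured, by 1 probe set each, among 17928 probe sets that carry a single gene symbol. The values came from 42 Affymetrix Mouse430V2 arrays of bulk skin in 9 groups. Wounds of female db/db mice, which lack the leptin receptor and are a model of type 2 diabetes, were treated topically with IL-22-Fc (the cytokine IL-22 fused to an antibody Fc), VEGF, PDGF or a control protein. Tissue was taken at 24 h after a single dose (5 arrays each for IL-22-Fc, VEGF and PDGF, and 4 for control), or on day 7 with doses every other day to day 6 (5 arrays each for IL-22-Fc, VEGF and control, and 3 for PDGF). Another 5 arrays were of untreated day 0 skin.

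Labelled doses at 24 h were 50 µg for IL-22-Fc, 20 µg for VEGF and 50 µg for PDGF. On day 7 they were 20 µg for VEGF and 50 µg for PDGF, with none labelled for IL-22-Fc. The sources differ on the control, labelled as an antibody to ragweed but a control Fc in the methods. They also differ on the doses, with IL-22-Fc at 20 µg in the design text and VEGF at 50 µg in the methods. The strain is labelled C57BL/6 for every array, whereas the db/db mice of the methods were on a BKS background and bought at 10 to 12 weeks of age. Wounds were 6 mm across, and a rim of 2 mm around the wound was collected. The genotype of the untreated group is not labelled, so any genotype difference cannot be told apart from wounding in comparisons with it. Nothing in the labels says that each array is a separate mouse, and p-values measure the spread between arrays only. In bulk skin, fewer mast cells and less RNA per mast cell cannot be told apart.

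Mast cells mature in the tissue under stem cell factor, the ligand of the receptor Kit, and store histamine and proteases on a serglycin matrix. Antigen bound to IgE crosslinks the high-affinity IgE receptor and empties the granules, and in skin a second route runs through receptors of the Mrgpr family. The 9 genes cover the proteases, histamine synthesis, the IgE receptor and the Mrgpr family, but not stem cell factor, Kit or serglycin. Cma1 and Mcpt4 encode chymases, Tpsb2 and Tpsab1 tryptases, and Cpa3 carboxypeptidase A3, all granule proteases. Fcer1a and Ms4a2 encode the alpha and beta chains of the IgE receptor, Hdc the enzyme that makes histamine, and Mrgprb1 a receptor of the Mrgpr family. Tpsab1 is annotated as a transcribed pseudogene in the RefSeq table of the C57BL/6J reference. Hdc is also used by neutrophils and their precursors, and Fcer1a by basophils and some dendritic cells.

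With VEGF on day 7, 6 of these genes were called lower, though only the Cma1 and Cpa3 calls held under each single omission. Hdc, Tpsb2 and Tpsab1 did not pass. Promoters are shown to set them side by side, with Hdc the only gene of those 3 that has one here. RefSeq promoters (GRCm38.p6) matched 7 of the 9 members by symbol, with Tpsb2 and Tpsab1 unmatched, and all 7 are given. Each line gives the 250 bases before the annotated start, 5′ to 3′ on the gene's strand, which is the minus strand for all 7. Capitals mark GATAA, the core that GATA factors recognise, on either strand (GATAA or TTATC).
Cma1, chr14:55944676-55944925: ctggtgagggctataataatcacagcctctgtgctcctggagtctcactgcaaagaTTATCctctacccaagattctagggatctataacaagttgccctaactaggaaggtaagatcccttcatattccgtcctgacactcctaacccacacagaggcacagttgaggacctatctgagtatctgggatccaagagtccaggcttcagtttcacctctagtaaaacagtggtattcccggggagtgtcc
Mcpt4, chr14:56062311-56062560: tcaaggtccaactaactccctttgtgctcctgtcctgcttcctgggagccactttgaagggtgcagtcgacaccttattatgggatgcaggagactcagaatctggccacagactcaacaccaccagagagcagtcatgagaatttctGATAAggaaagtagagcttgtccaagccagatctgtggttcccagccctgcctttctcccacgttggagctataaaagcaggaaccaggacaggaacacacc
Cpa3, chr3:20242182-20242431: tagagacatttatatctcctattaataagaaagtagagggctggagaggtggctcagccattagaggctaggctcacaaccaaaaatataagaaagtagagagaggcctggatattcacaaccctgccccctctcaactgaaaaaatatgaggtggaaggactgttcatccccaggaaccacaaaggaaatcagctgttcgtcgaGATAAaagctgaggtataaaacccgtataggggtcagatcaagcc
Fcer1a, chr1:173227230-173227479: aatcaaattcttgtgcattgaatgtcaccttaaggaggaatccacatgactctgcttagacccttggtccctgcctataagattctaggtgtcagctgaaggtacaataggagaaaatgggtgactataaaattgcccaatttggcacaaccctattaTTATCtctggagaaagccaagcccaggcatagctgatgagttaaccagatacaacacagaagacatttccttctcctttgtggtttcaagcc
Ms4a2, chr19:11623720-11623969: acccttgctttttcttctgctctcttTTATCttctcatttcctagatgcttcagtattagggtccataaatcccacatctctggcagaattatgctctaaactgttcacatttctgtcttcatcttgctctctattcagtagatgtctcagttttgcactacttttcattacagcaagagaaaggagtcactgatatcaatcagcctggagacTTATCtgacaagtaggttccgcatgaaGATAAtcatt
Mrgprb1, chr7:48456343-48456592: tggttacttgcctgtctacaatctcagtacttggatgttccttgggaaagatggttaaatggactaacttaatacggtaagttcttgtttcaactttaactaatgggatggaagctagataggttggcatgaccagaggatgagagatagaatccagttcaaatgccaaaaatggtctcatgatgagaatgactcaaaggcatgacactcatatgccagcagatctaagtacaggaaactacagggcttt
Hdc, chr2:126618679-126618928: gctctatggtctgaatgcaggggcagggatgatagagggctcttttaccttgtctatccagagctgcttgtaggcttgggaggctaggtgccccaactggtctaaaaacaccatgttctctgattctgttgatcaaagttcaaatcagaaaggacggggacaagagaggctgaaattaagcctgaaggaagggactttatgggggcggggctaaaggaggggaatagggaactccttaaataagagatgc

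GATAA stood in the windows of Cma1, Mcpt4, Cpa3, Fcer1a and Ms4a2, and not in those of Mrgprb1, which fell with VEGF as they did, and Hdc. Of all 32851 promoters of the same length, 22.6% held it. Ms4a2 had 3 matches, and the Cpa3 match began 45 bases before the start. A match is a description of these letters and does not show binding.

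Levels below are log2 of the deposited intensities, and a probe set's level is compared only with itself, except where it is set beside the level of no transcript. Calls rest on limma fits over all 20672 probe sets at a Benjamini-Hochberg adjusted p under 0.05. Y-linked Uty, Kdm5d and Eif2s3y, which female mice lack, read between 2.31 and 3.78 and give the level of no transcript. Cpa3, at 9.43 to 10.79, and Cma1, at 9.45 to 10.52, were well above this on every array. Ms4a2 was not, at 3.75 to 5.95, with its lowest array within the Y-linked range. The sizes of Ms4a2 differences are therefore less well resolved. Basophil markers were near that floor, with medians over the 42 arrays of 4.24 for Mcpt8 and 3.52 for Cd200r3.

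Arrays of 2 kinds stood apart. Untreated replicate 5 had a summed intensity of 36165 over 9 hair follicle genes, against 333 to 6977 on the other 41 arrays, and 8811 over 6 melanocyte genes, against 223 to 471. It also had the lowest summed level of the 9 mast cell genes, 2757 against 3257 to 5466 elsewhere. The mean log2 level of the 5′ Gapdh and Actb control probe sets, a sign of how complete the labelled RNA was, was 11.92, 12.11 and 12.18 on the PDGF day 7 arrays and 11.72 on untreated replicate 5, against 12.76 or more on every other array. Counts of the 9 genes against untreated skin are therefore also given without its replicate 5. Counts that rest on the PDGF day 7 arrays are also given with the 5′ level in the fit, except for pericyte and smooth muscle genes. Dendritic and basophil counts against untreated skin are given on all arrays only. Within-array differences, exact tests and summed levels are given as measured.

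**Figure D1:**
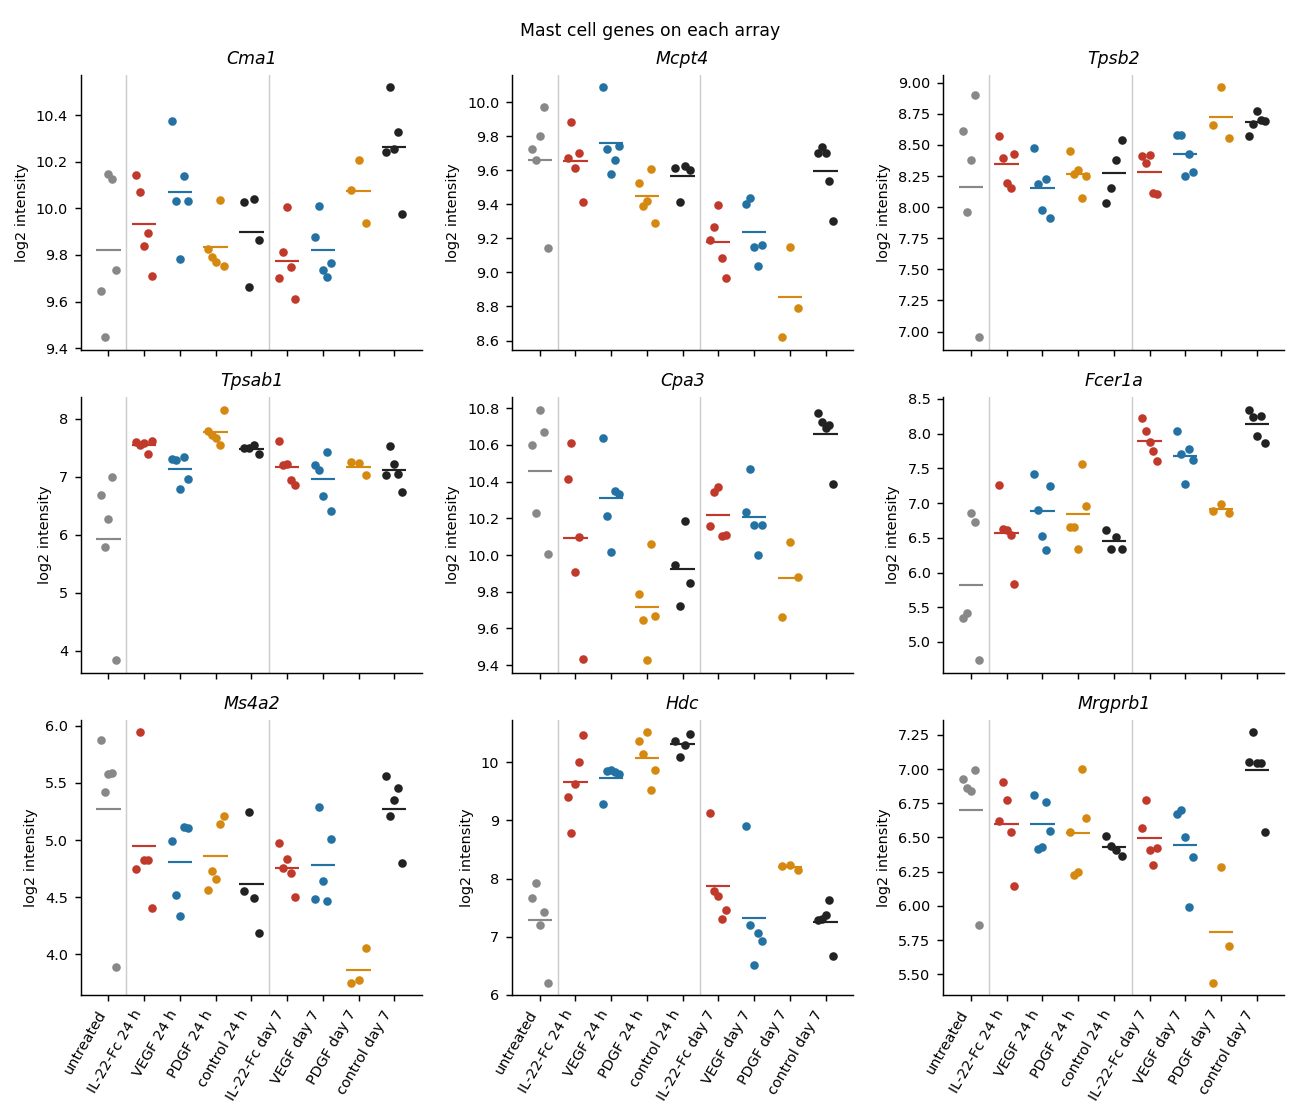
Log2 intensity (vertical axes, each with its own range) of the 9 genes on each of 42 arrays, with untreated skin at left, 24 h wounds in the middle and day 7 wounds at right; points are arrays and bars group means. Hdc is high at 24 h, Fcer1a rises to day 7, and Ms4a2, Mrgprb1, Fcer1a, Cpa3 and Mcpt4 are low in the 3 PDGF arrays of day 7.

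The first question was how the genes behaved in control wounds over time. They did not move as a block: Hdc rose and fell back, Fcer1a climbed, and the chymase Mcpt4 changed little. Between control wounds at 24 h and untreated skin, 2 of 9 rose (19.3% of all probe sets did) and 1 fell (20.2% did). Between control wounds on day 7 and at 24 h, 4 of 9 rose (14.1% of all) and 1 fell (16% of all), a total that dropped to 3 without control day 7 replicate 2 or control 24 h replicate 4. Between control wounds on day 7 and untreated skin, 4 rose (18.2%) and 0 fell (18.6%), by limma, with 0 lower at an unadjusted p under 0.05 and 0 by the methods' t-test. Without untreated replicate 5, Tpsb2 lost its call and 3 rose, where 4301 of all 20672 probe sets rose. The share that changed at 24 h was near that of all probe sets. The share that rose by day 7 was above it, but rests on few genes, of which Tpsb2 over untreated skin depends on untreated replicate 5. The median change over the 9 was 0.08, 0.40 and 0.29 in these comparisons, beside 0.03, 0.00 and 0.04 over all probe sets.

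Hdc read 7.67, 7.93, 7.20, 7.42 and 6.21 in untreated skin, 10.36, 10.09, 10.29 and 10.48 in 24 h control wounds, and 7.28, 7.30, 7.38, 7.63 and 6.67 in day 7 control wounds. All 24 h arrays lay above all arrays of both other groups. Of all probe sets, 11.4% had 24 h controls wholly above untreated skin, and 13.6% had day 7 controls wholly below 24 h controls. The difference was 3.02 ± 0.35 (log2, SE) for 24 h controls over untreated skin (adjusted p = 1.3e-08) and -3.05 ± 0.35 for day 7 over 24 h controls (adjusted p = 1.6e-08). Day 7 controls and untreated skin differed by -0.03 (95% interval -0.71 to 0.64).

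Of 8 measured neutrophil genes, 5 rose and 0 fell in 24 h controls over untreated skin (6 and 0 without untreated replicate 5), and 0 rose and 2 fell in day 7 over 24 h controls. Csf3r, the G-CSF receptor of neutrophils, read 5.21 to 6.19 in untreated skin, 9.29 to 9.66 in 24 h controls and 6.79 to 7.41 in day 7 controls. The summed intensity of the list was 586 to 1191, 22467 to 34516 and 13294 to 24282 in the same groups. In day 7 controls the sum and Csf3r were above their untreated ranges, and Hdc was within its own. IL-22-Fc wounds on day 7 had the highest neutrophil sums, 40412 to 42981, and Hdc there averaged 7.87 ± 0.72 (SD, n = 5). The list includes S100a9, which the paper reports as raised by IL-22-Fc in these wounds, so the sum need not follow neutrophils. Csf3r and Cxcr2, also in the list, averaged 7.55 and 7.36 there, against 9.46 and 8.01 in 24 h controls. The part of neutrophils in the Hdc level was not tested.

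Fcer1a read 5.34, 5.41, 6.86, 6.72 and 4.74 in untreated skin, 6.61, 6.34, 6.51 and 6.34 in 24 h controls, and 8.35, 8.24, 7.97, 8.26 and 7.87 in day 7 controls. Every day 7 array was above every earlier one. Of all probe sets, 9.17% had day 7 controls wholly above untreated skin and 11.2% had them wholly above 24 h controls. Its rise was 2.32 ± 0.28 in day 7 controls over untreated skin (adjusted p = 1.7e-08) and 1.68 ± 0.29 over 24 h controls (adjusted p = 2.4e-05). Ms4a2, its partner chain, did not follow, with 5.56, 5.21, 5.35, 5.45 and 4.80 in day 7 controls against 5.87, 5.42, 5.58, 5.59 and 3.89 in untreated skin, a difference of 0.01 (95% interval -0.53 to 0.54). Within arrays, the Fcer1a minus Ms4a2 difference was 2.86 ± 0.18 (SD, n = 5) in day 7 controls and 0.54 ± 0.78 (SD, n = 5) in untreated skin (exact permutation p = 0.00794, the smallest 5 against 5 allows, and 0.0795 adjusted over 60 such tests). Of 8 dendritic and Langerhans cell genes, 1 rose and 4 fell in the same comparison, with summed intensities of 3610 to 5072 in day 7 controls and 5601 to 8315 in untreated skin. Of 4 basophil genes measured 1 rose, Mcpt8 by 0.73, and their sum was 85 to 98 in day 7 controls and 61 to 80 in untreated skin. Their part in the Fcer1a level was not tested.

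Tryptase and protease genes shifted less. Tpsab1 read 7.49, 7.49, 7.54 and 7.39 in 24 h controls against 6.69, 5.79, 6.28, 7.00 and 3.84 in untreated skin. All 24 h arrays were higher, as for 11.4% of all probe sets. The difference was 1.56 ± 0.32 (adjusted p = 1.3e-04), and 1.04 without untreated replicate 5 (adjusted p = 3.7e-05). In day 7 controls Tpsab1 was 1.19 ± 0.30 above untreated skin (adjusted p = 0.0016), and 0.67 without that array (adjusted p = 0.0038). Its close relative Tpsb2 rose by 0.52 in day 7 controls (adjusted p = 0.027), a call that was lost without untreated replicate 5 (0.22, adjusted p = 0.20), without untreated replicate 2 or without control replicate 3.

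Cpa3 took the opposite course at 24 h, with 9.94, 9.72, 10.19 and 9.85 in 24 h controls against 10.60, 10.23, 10.79, 10.67 and 10.004 in untreated skin. It fell by 0.53 (adjusted p = 0.0098) and was back at 10.78, 10.72, 10.70, 10.71 and 10.39 in day 7 controls, 0.73 above 24 h (adjusted p = 7.3e-04). Without untreated replicate 5, Ms4a2 (-0.997, adjusted p = 6.1e-04) and Mrgprb1 (-0.48, adjusted p = 0.021) also fell at 24 h. The count for 24 h controls over untreated skin was then 2 higher and 3 lower, and the median over the 9 was -0.19. Of all 20672 probe sets, 4787 were higher and 4645 lower in that setting. Cma1 was 0.44 higher in day 7 controls than in untreated skin (adjusted p = 0.0027), while Mcpt4 differed from untreated skin by -0.10 in 24 h controls and -0.06 in day 7 controls.

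**Figure D2:**
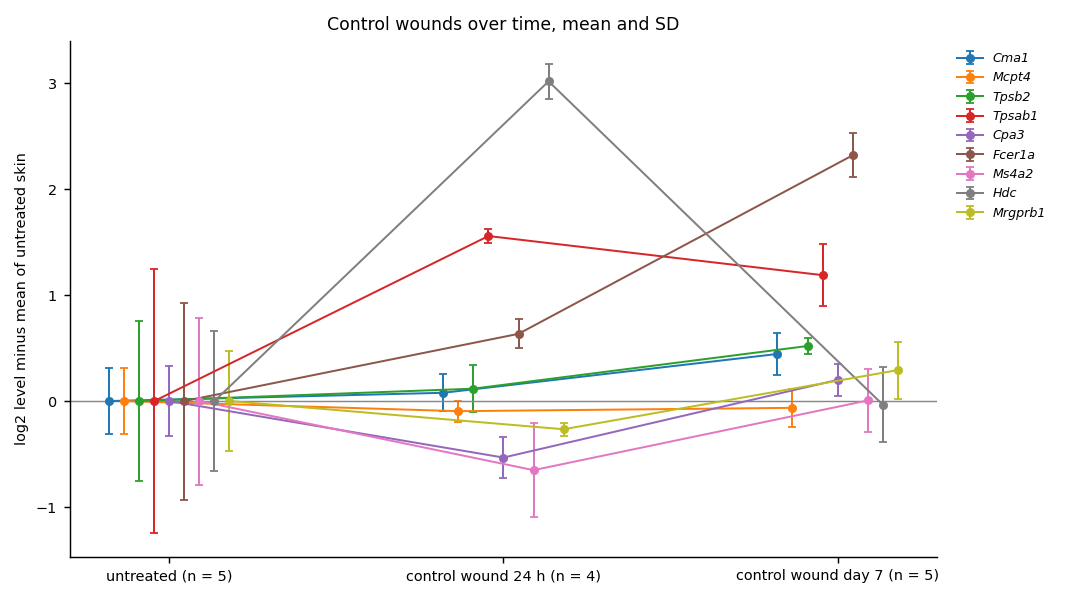
Mean log2 level of each gene minus its mean in untreated skin (vertical axis), in untreated skin, control wounds at 24 h and control wounds on day 7; bars are SD over 5, 4 and 5 arrays. Hdc peaks at 3.02 at 24 h and Fcer1a reaches 2.32 on day 7, while the wide bars of untreated skin include replicate 5.

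On day 7 the treatments were set against control wounds, the comparison the study was built on. In all 3 treatments mast cell genes were lower than in control wounds and none rose. In IL-22-Fc wounds 4 of 9 fell (2.64% of all probe sets fell and 2.81% rose), in VEGF wounds 6 of 9 (8.74% fell and 5.96% rose) and in PDGF wounds 5 of 9 (16% fell and 18.9% rose). The counts of 0 higher are limma's, and by the methods' t-test Hdc was higher with PDGF. The median change over the 9 was -0.42 for IL-22-Fc, -0.44 for VEGF and -0.74 for PDGF, beside -0.00, -0.01 and 0.04 over all probe sets. The 3 comparisons share the same 5 control arrays, so they are not independent of each other.

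With IL-22-Fc the genes that fell encode granule proteases. Cma1 read 9.70, 9.81, 10.01, 9.75 and 9.61 in IL-22-Fc wounds against 10.24, 10.52, 10.25, 10.33 and 9.98 in control wounds, a change of -0.49 ± 0.10 (SE, adjusted p = 0.0043). Control replicate 5 was the lowest control and 1 IL-22-Fc array was above it. Cpa3 read 10.16, 10.34, 10.37, 10.11 and 10.11 in IL-22-Fc wounds against 10.78, 10.72, 10.70, 10.71 and 10.39 in control wounds, with no overlap between the groups (-0.44 ± 0.10, adjusted p = 0.011). Tpsb2 did not overlap either, with 8.41, 8.36, 8.42, 8.12 and 8.10 in IL-22-Fc wounds against 8.57, 8.67, 8.77, 8.70 and 8.69 in control wounds (-0.40 ± 0.10, adjusted p = 0.016). Of all probe sets, 3.1% lay wholly below control in this way. Mcpt4 fell by 0.42 (adjusted p = 0.037).

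The IgE receptor genes and Mrgprb1 had values of the same sign with IL-22-Fc but did not pass. Ms4a2 read 4.97, 4.75, 4.83, 4.71 and 4.503 in IL-22-Fc wounds against 5.56, 5.21, 5.35, 5.45 and 4.80 in control wounds (-0.52 ± 0.15, adjusted p = 0.054), and Mrgprb1 differed by -0.50 (adjusted p = 0.080). Without control replicate 5 both passed, Ms4a2 at -0.64 (adjusted p = 0.015) and Mrgprb1 at -0.61 (adjusted p = 0.030). Fcer1a differed by -0.24 (95% interval -0.51 to 0.04), Tpsab1 by 0.06 (-0.31 to 0.43) and Hdc by 0.62 (-0.11 to 1.35), where 1 IL-22-Fc array at 9.12 stood above 7.78, 7.70, 7.30 and 7.46. The Mcpt4 call held only without control replicate 5 or IL-22-Fc replicate 3 among 10 single omissions (adjusted p 0.017 to 0.091), and that of Tpsb2 was lost without IL-22-Fc replicate 4 (-0.36, adjusted p = 0.051), where the count was 2.

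In VEGF wounds, chymase, carboxypeptidase, IgE receptor and Mrgprb1 genes were lower, and the tryptases and Hdc did not pass. Cma1 read 9.88, 10.01, 9.73, 9.71 and 9.77 in VEGF wounds, against the control values above (-0.44 ± 0.10, adjusted p = 0.0034). Cpa3 read 10.23, 10.47, 10.17, 9.999 and 10.16 in VEGF wounds (-0.45 ± 0.10, adjusted p = 0.0035). In both genes a single control array, replicate 5, reached into the VEGF range. Fcer1a read 8.03, 7.71, 7.27, 7.78 and 7.62 in VEGF wounds against 8.35, 8.24, 7.97, 8.26 and 7.87 in control wounds (-0.45, adjusted p = 0.023). Mrgprb1 (-0.55, adjusted p = 0.024), Ms4a2 (-0.50, adjusted p = 0.034) and Mcpt4 (-0.36, adjusted p = 0.040) fell as well. Tpsb2 differed by -0.26 (adjusted p = 0.085), Tpsab1 by -0.15 (95% interval -0.51 to 0.22) and Hdc by 0.06 (-0.67 to 0.80).

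The VEGF calls of Cma1 and Cpa3 held under each single omission, while the count was 2 without control replicates 1, 2 or 4 and 3 without control replicate 3 or VEGF replicates 3 or 4. Fcer1a lost its call without control replicates 1, 2 or 4 or VEGF replicate 3 (highest adjusted p 0.077), and Mcpt4, Ms4a2 and Mrgprb1 lost theirs in 7, 7 and 6 of 10 omissions (highest adjusted p 0.10, 0.098 and 0.078). Each kept its sign, with Mcpt4 between -0.43 and -0.31, Ms4a2 between -0.62 and -0.42, and Mrgprb1 between -0.66 and -0.43.

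The IgE receptor chains and Mrgprb1 fell most in PDGF wounds. Ms4a2 read 3.75, 3.77 and 4.06 in PDGF wounds against 5.56, 5.21, 5.35, 5.45 and 4.80 in control wounds, a change of -1.42 ± 0.18 (adjusted p = 2.7e-06) to levels near the highest Y-linked value of 3.78, so the size of this difference is not resolved and may be larger. Fcer1a read 6.89, 6.99 and 6.86 in PDGF wounds (-1.22 ± 0.15, adjusted p = 2.2e-06). Mrgprb1 read 5.44, 6.29 and 5.71 in PDGF wounds against 7.05, 7.27, 7.04, 7.04 and 6.54 in control wounds (-1.18 ± 0.18, adjusted p = 3.6e-05). No PDGF array of these genes reached the control range. Cpa3 at 9.66, 10.07 and 9.88 (-0.79 ± 0.12, adjusted p = 2.0e-05) and Mcpt4 at 8.62, 9.15 and 8.79 (-0.74 ± 0.13, adjusted p = 1.6e-04) were also wholly below control, as were 16.0% of all probe sets.

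The other chymase and the tryptases did not fall with PDGF. Cma1 read 10.08, 10.21 and 9.94 in PDGF wounds (-0.19, 95% interval -0.43 to 0.05). Tpsb2 differed by 0.05 (-0.19 to 0.28) and Tpsab1 by 0.06 (-0.36 to 0.49). Hdc read 8.21, 8.24 and 8.15 in PDGF wounds, all above the control arrays at 7.28, 7.30, 7.38, 7.63 and 6.67, but the difference of 0.95 ± 0.40 did not pass (adjusted p = 0.077). Of all probe sets, 19.4% lay wholly above control in this way.

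Set against untreated skin in place of control wounds, day 7 wounds kept the high Fcer1a and Tpsab1 and differed in the rest. In IL-22-Fc wounds 2 genes were higher (21.9% of all probe sets) and 1 lower (20.3%), and in VEGF wounds 2 were higher (22.4%) and 1 lower (22.9%): Fcer1a (2.08 and 1.87) and Tpsab1 (1.25 and 1.04) against Mcpt4 (-0.48 and -0.42). In PDGF wounds 3 were higher (24.5%) and 4 lower (20.8%), with Fcer1a at 1.095, Tpsab1 at 1.25 and Tpsb2 at 0.57, and Ms4a2 at -1.41, Mrgprb1 at -0.89, Mcpt4 at -0.81 and Cpa3 at -0.59. Without untreated replicate 5, Ms4a2 (-0.86 and -0.84) and Mrgprb1 (-0.41 and -0.46) were also lower with IL-22-Fc and VEGF, for 3 lower in each, and Tpsb2 lost its call with PDGF (0.26, adjusted p = 0.15). Of all 20672 probe sets, 4414 were lower with IL-22-Fc and 4837 with VEGF in that setting.

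PDGF wounds were also the group with low 5′ control levels, which cannot be told apart from the treatment. With the 5′ level in the day 7 fit, 0 of the 9 genes passed for PDGF and the median was -0.32. Ms4a2 was then at -1.43 ± 0.56 (adjusted p = 0.23), Mrgprb1 at -1.04 (0.42), Cpa3 at -0.73 (0.36), Fcer1a at -0.47 (0.67) and Mcpt4 at -0.32 (0.76). Of all 20672 probe sets, 52 rose and 131 fell with PDGF in that fit. The call counts for IL-22-Fc and VEGF did not move by more than 1.5 times in it. Against untreated skin, PDGF wounds had 4 genes higher and 3 lower with the 5′ level included, where 3603 of all 20672 probe sets were higher and 3814 lower.

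Single-gene exact permutation tests had little reach, with a smallest 2-sided p of 0.00794 for 5 against 5 arrays and 0.0357 for 5 against 3. Tpsb2 and Cpa3 with IL-22-Fc reached the first of these, and the 5 genes below control with PDGF, and Hdc above it, reached the second. After adjustment over all 108 such tests the lowest value was 0.0954, so 0 passed by this test, and 42 were under an unadjusted 0.05.

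**Figure D3:**
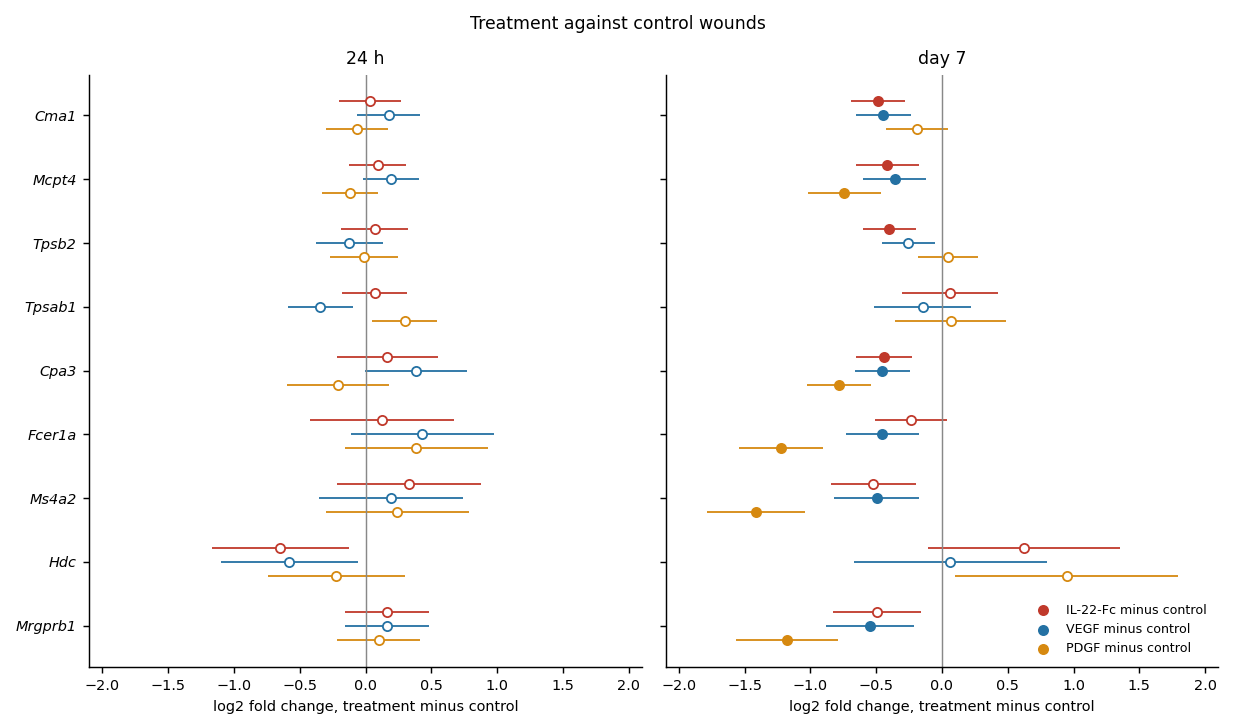
Log2 fold change of each treatment over control wounds (horizontal axes) for the 9 genes at 24 h and on day 7, with 95% intervals from limma; filled points passed an adjusted p under 0.05. No point is filled at 24 h; on day 7 the filled points lie between -1.42 and -0.36.

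The treatments were then compared with each other on day 7. In IL-22-Fc against VEGF wounds 0 of the 9 genes passed by limma, at an adjusted or an unadjusted p under 0.05, or by the methods' t-test (12.1% of all probe sets were higher and 10.8% lower in IL-22-Fc than in VEGF wounds). The intervals of this difference were narrow for the proteases, -0.25 to 0.16 for Cma1 and -0.20 to 0.22 for Cpa3, and wide for Hdc, -0.17 to 1.29. Against PDGF wounds, IL-22-Fc wounds were higher in 4 genes (17% of all) and lower in 2 (21.1% of all), and VEGF wounds were higher in 5 (17%) and lower in 1 (22.7%). Once the 5′ level was fitted, 0 of the 9 passed in either pair, and the medians were -0.12 and -0.09. Of all probe sets, 106 were then higher and 40 lower in IL-22-Fc than in PDGF wounds, and 60 higher and 22 lower in VEGF than in PDGF wounds.

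IgE receptor genes and the tryptase went opposite ways in these pairs. Fcer1a was higher by 0.99 ± 0.15 in IL-22-Fc than in PDGF wounds (adjusted p = 2.5e-05) and by 0.77 in VEGF than in PDGF wounds (adjusted p = 3.3e-04). Including the 5′ level gave 0.18 (adjusted p = 0.91) and -0.09 (adjusted p = 0.96). Ms4a2 was higher by 0.89 and 0.92 (adjusted p = 4.2e-04 and 2.9e-04), sizes that are not resolved because PDGF arrays were near the level of no transcript, and 0.91 and 0.93 with the 5′ level (adjusted p = 0.53 and 0.55). Tpsb2 read 8.41, 8.36, 8.42, 8.12 and 8.10 in IL-22-Fc wounds against 8.66, 8.97 and 8.55 in PDGF wounds, a difference of -0.45 (adjusted p = 0.0029), and was also lower in VEGF than in PDGF wounds (-0.30, adjusted p = 0.035). Tpsb2 was at -0.98 and -0.87 (adjusted p = 0.20 and 0.30) when the 5′ level was included.

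At 24 h no treatment moved any of the 9 genes past the threshold by limma. Against 24 h controls, 0.0726% of all probe sets rose and 0.0387% fell with IL-22-Fc, 0.126% and 0.00967% with VEGF, and 0.489% and 1.4% with PDGF. Without control 24 h replicate 2, 799 probe sets were higher and 842 lower with PDGF, several times the counts with it, and 0 of the 9 genes passed there as well. At an unadjusted p under 0.05, limma had 1 gene with IL-22-Fc (Hdc), 2 with VEGF (Tpsab1 and Hdc) and 1 with PDGF (Tpsab1), and by the methods' t-test 0 passed after adjustment in each. The median over the 9 was 0.09, 0.17 and -0.01. Hdc read 9.29, 9.85, 9.86, 9.82 and 9.80 in VEGF wounds, all below the 24 h controls at 10.36, 10.09, 10.29 and 10.48 (-0.58, adjusted p = 0.50). Of all probe sets, 1.6% lay wholly below control with VEGF at 24 h, and 1.9% wholly above it with PDGF. Tpsab1 was wholly below control with VEGF (7.30, 7.29, 6.79, 7.34 and 6.95) and wholly above it with PDGF (7.78, 7.72, 7.68, 7.55 and 8.16), where controls read 7.49, 7.49, 7.54 and 7.39. Neither difference from control passed (adjusted p = 0.40 and 0.21), but the difference between VEGF and PDGF did (-0.64 ± 0.11, adjusted p = 9.2e-04), as did those of Cpa3 (0.59, adjusted p = 0.038) and Mcpt4 (0.31, adjusted p = 0.049). Thus 2 genes were higher in VEGF than in PDGF wounds at 24 h (6.87% of all) and 1 was lower (2.28% of all). In IL-22-Fc against VEGF wounds at 24 h 0 passed (0.189% of all were higher and 0.498% lower), and in IL-22-Fc against PDGF wounds 0 passed (5.2% higher and 2.3% lower), by limma and by the methods' t-test. At an unadjusted p under 0.05 limma had 1 gene in the first pair, Tpsab1 (0.41, adjusted p = 0.13), and 2 in the second, Mcpt4 (0.21, adjusted p = 0.22) and Cpa3 (0.37, adjusted p = 0.23).

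The change of each treatment effect between the times was tested as an interaction over 37 wound arrays. With VEGF 4 of 9 genes had a lower effect on day 7 than at 24 h (6.28% of all probe sets) and 0 a higher one (2.57%): Cpa3 (-0.84, adjusted p = 0.0092), Cma1 (-0.62, 0.0059), Mcpt4 (-0.55, 0.020) and Mrgprb1 (-0.71, 0.048). With PDGF 4 were lower (14.3% of all) and 0 higher (18.1%): Ms4a2 (-1.66, 2.1e-04), Fcer1a (-1.61, 1.8e-04), Mrgprb1 (-1.28, 1.1e-04) and Mcpt4 (-0.62, 0.0039). With IL-22-Fc 0 passed, though 7 of 9 had an unadjusted p under 0.05 in limma, 6 of them lower, led by Ms4a2 at -0.85 (adjusted p = 0.18) and Cma1 at -0.52 (adjusted p = 0.067). For IL-22-Fc, 0.934% of all probe sets were lower and 0.759% higher. With the 5′ level in the fit, 0 of the 9 passed for PDGF (77 of all probe sets were higher and 65 lower), and the VEGF calls were 4. The VEGF count was 2 without VEGF 24 h replicate 1, and Mrgprb1 alone lost its VEGF call in 14 of 19 single omissions (adjusted p up to 0.11). The IL-22-Fc count was 1 without control day 7 replicate 5 or IL-22-Fc day 7 replicate 3, and 3 without IL-22-Fc 24 h replicate 5.

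Differences between 2 genes on the same array show whether they changed unequally. Mcpt4 minus Cma1 was -1.22 ± 0.21 (SD, n = 3) in PDGF wounds on day 7 and -0.67 ± 0.12 (n = 5) in control wounds, a change of -0.55 with no overlap (exact permutation p = 0.0357). Cpa3 minus Cma1 changed by -0.60 in the same comparison (exact permutation p = 0.0357). With IL-22-Fc the same differences moved by 0.07 and 0.05, and with VEGF by 0.09 and -0.01, less than the SD of control arrays. Other pairs moved more with IL-22-Fc, Hdc minus Cpa3 by 1.06 (exact permutation p = 0.00794), Tpsab1 minus Tpsb2 by 0.46 (exact permutation p = 0.0397) and Fcer1a minus Ms4a2 by 0.29 (exact permutation p = 0.0317), and Hdc minus Cpa3 by 1.73 with PDGF (exact permutation p = 0.0357). None of 60 such tests passed after adjustment, with 0.0795 the lowest value.

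Within groups, the genes varied together from array to array, with Hdc apart. Over 42 arrays, deviations from the group means had a median Pearson r of 0.56 over pairs without Hdc and 0.11 over pairs with it. The closest pairs were the tryptases Tpsb2 and Tpsab1 (0.87), Mcpt4 and Mrgprb1 (0.81) and Mcpt4 and Cpa3 (0.80). Leaving out untreated replicate 5 lowered the medians to 0.45 and -0.09, the tryptase pair to 0.66, and left Cma1 and Cpa3 at 0.78. All genes on an array share its RNA and its labelling, so these values are descriptions.

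**Figure D4:**
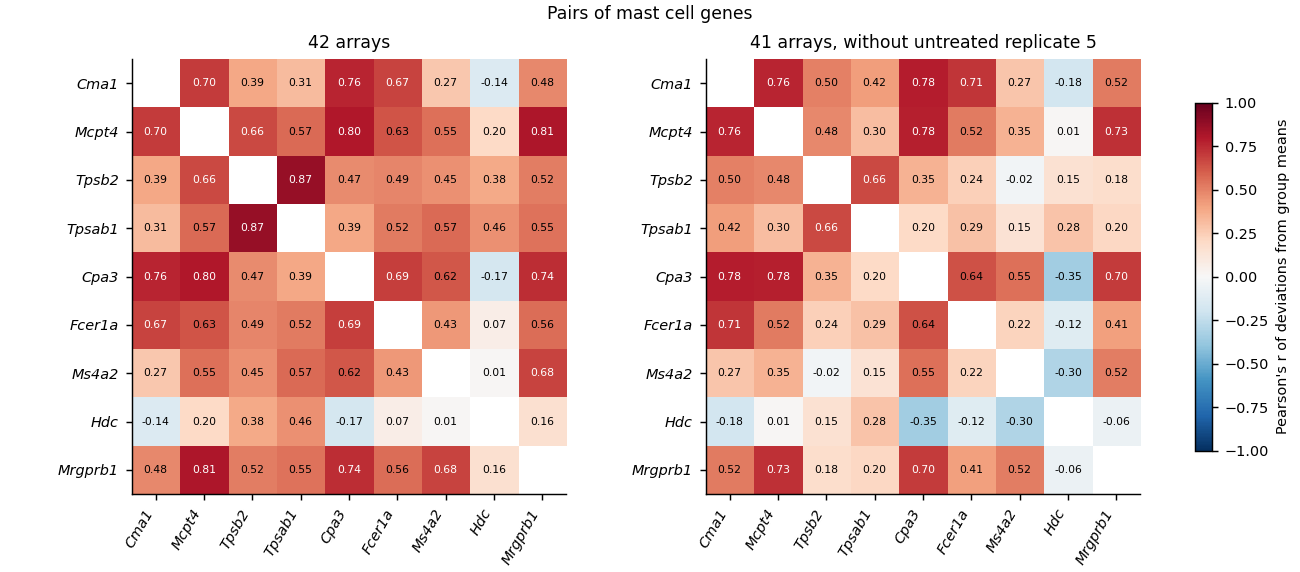
Pearson's r (colour, from -1 in blue to 1 in red) between the deviations of 2 genes from their group means, over 42 arrays at left and without untreated replicate 5 at right. Proteases, receptor chains and Mrgprb1 are mostly red with each other, and the Hdc row is pale or blue.

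The gene most like the mean of the 9 was Mcpt2, another mast cell chymase (r = 0.93, Spearman 0.88, 42 arrays; 0.87 and again first without untreated replicate 5). Next were Fam89a (0.84), Sdr9c7 (0.82), Scd1, Defb1, Acsl4, Anxa7, Sgms1, Mycbp2 and Dkkl1 (0.80). Without that array Ctsg, which encodes the granule protease cathepsin G, came second (0.78) and Fam89a the third (0.73), while Scd1 dropped to rank 38.

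Genes of the wider mast cell programme were counted by list, beside the shares of all probe sets given above (18.9% rose and 16% fell with PDGF). With the 5′ level in the fit, PDGF calls that remained in these lists were Snap23 (-1.88, adjusted p = 0.0087), Kitl (-1.91, 0.012), Hpgds (-2.26, 0.014), Syk (2.25, 0.027) and Inpp5d (1.27, 0.047), and no other gene of the 6 lists passed. Of 15 measured granule and secretion genes, 2 fell with IL-22-Fc on day 7, Ctsg (-0.51, adjusted p = 0.0068) and Mcpt2 (-0.37, 0.045), while Srgn (0.40, 0.36) and Rab27b (0.36, 0.13) did not pass. With VEGF 4 fell, Rab27b (-0.82), Ctsg (-0.64), Mcpt2 (-0.44) and Rab27a (-0.39), and 0 rose. With PDGF 2 fell and 6 rose, led by the membrane fusion gene Snap23 (-2.21), serglycin Srgn (1.51) and the granule transport gene Rab27b (-1.10). The list medians were -0.15, -0.17 and 0.20. Mcpt2 read 11.52, 11.56, 11.52, 11.16 and 11.21 in IL-22-Fc wounds and 11.65, 11.86 and 11.58 in PDGF wounds against 11.81, 11.81, 11.81, 11.93 and 11.45 in control wounds, so this chymase, like Cma1, kept near the control range with PDGF.

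Among 12 measured growth and identity genes, Kitl, which encodes stem cell factor, read 5.47, 5.92 and 5.66 in PDGF wounds against 7.56, 7.68, 7.62, 7.58 and 7.59 in control wounds on day 7 (-1.93, adjusted p = 5.6e-11). It fell with IL-22-Fc (-0.34, adjusted p = 0.041) and rose with VEGF (0.37, adjusted p = 0.011). Its receptor Kit fell with IL-22-Fc (-0.39, adjusted p = 0.016), at 6.99, 7.11, 7.01, 6.90 and 7.02 against 7.47, 7.35, 7.38, 7.62 and 7.14 in control wounds. The list had 0 higher and 2 lower with IL-22-Fc, 3 and 0 with VEGF, and 5 and 1 with PDGF, where Gata1 (0.74), Il3ra (0.71) and Tal1 (0.64) rose. Medians were 0.05, 0.19 and 0.03.

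IgE receptor signalling genes, most of which other leukocytes share, went the other way from the receptor chains with PDGF. Of 15 measured, 9 rose and 1 fell, led by Syk (1.48), Inpp5d (1.103) and the receptor's gamma chain Fcer1g (0.69), with a list median of 0.45 (2 rose and 0 fell with the 5′ level in the fit). With VEGF 4 rose and 2 fell, and with IL-22-Fc 0 rose and 2 fell, Itpkb (-0.59) and Lat2 (-0.45). In 24 h controls over untreated skin 10 rose and 2 fell, led by Lcp2 (2.25) and Fcer1g (2.21), and likewise 10 and 2 without untreated replicate 5.

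Of 6 measured prostaglandin and leukotriene enzymes, Hpgds, the prostaglandin D2 synthase of mast cells and some macrophages, fell by 2.57 with PDGF (adjusted p = 2.8e-11), at 5.58, 5.14 and 5.08 in PDGF wounds against 8.06, 7.75, 7.85, 7.61 and 7.89 in control wounds, and Pla2g4a fell by 1.16. Alox5 fell with IL-22-Fc (-0.30, adjusted p = 0.019), and 0 of the 6 passed with VEGF. Of 7 measured genes for histamine receptors and removal, 2 rose and 1 fell with PDGF, Hrh1 (1.07) and Hrh3 (0.28) against Hnmt (-0.80), and 0 passed with IL-22-Fc or VEGF. Hnmt, which inactivates histamine, was lower in 24 h controls than in untreated skin (-1.24, adjusted p = 3.8e-06), the time when Hdc was high. Of 7 measured Mrgpr receptors other than Mrgprb1, Mrgprg fell with VEGF (-0.22, adjusted p = 0.034), and 0 passed with IL-22-Fc or PDGF.

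Genes of other cell types were counted on day 7 as well, each list in the direction named. Of all probe sets, 2.81% rose and 2.64% fell with IL-22-Fc, 5.96% and 8.74% with VEGF, and 18.9% and 16% with PDGF. The counts of neutrophil and of pericyte and smooth muscle genes with PDGF, and of fibroblast genes with VEGF, were near or below these shares. Adipocyte genes fell in 3, 7 and 6 of 8 with IL-22-Fc, VEGF and PDGF, with sums of 3115 to 4900, 2454 to 3734 and 2382 to 3871 against 5094 to 7047 in control wounds. Keratinocyte genes fell in 3, 8 and 4 of 9, with sums of 37161 to 42551, 33701 to 36517 and 45678 to 48862 against 47080 to 55276. Endothelial genes rose in 0, 9 and 5 of 10, with sums of 1041 to 1223, 2556 to 3595 and 1352 to 1568 against 1049 to 1236. Fibroblast genes fell in 1, 1 and 6 of 10, with sums of 38864 to 47916, 51720 to 63071 and 24527 to 36613 against 45342 to 61446. Neutrophil genes rose in 3, 0 and 1 of 8, with sums of 40412 to 42981, 8414 to 27489 and 17173 to 18554 against 13294 to 24282. The list includes S100a9, as said above, and Csf3r averaged highest in PDGF wounds (8.22). Dendritic and Langerhans cell genes, a cell type that can also use Fcer1a, rose in 0, 2 and 3 of 8, with sums of 3024 to 4599, 4128 to 5651 and 7220 to 7842 against 3610 to 5072. Macrophage genes rose in 0, 4 and 6 of 10, and pericyte and smooth muscle genes in 0, 8 and 2 of 10. With the 5′ level in the fit, 1 endothelial gene rose with PDGF and 0 genes of the adipocyte, keratinocyte, fibroblast, neutrophil, dendritic or macrophage lists passed. The summed level of the 9 mast cell genes was 3257 to 4075, 3335 to 4214 and 3315 to 3998 against 3954 to 5259 in control wounds. The part of tissue makeup in the mast cell values was not tested.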

How the data were processed

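RNA of 42 skin samples was hybridised to Affymetrix Mouse430V2 arrays. The deposited values are intensities on a linear scale, from 3.85 to 23537.3, which per the labels the authors made with RMA (background correction, quantile normalization and probe summary), a method that narrows large differences. Versions are not given in the sources used here. Intensities were taken to log2 and fitted with limma 3.58.1 (lmFit, eBayes; R 4.3.3) on 20672 probe sets: 18 day 7 arrays, 19 arrays at 24 h, 37 wound arrays for interactions, and 42 for comparisons with untreated skin. P-values were adjusted by Benjamini-Hochberg over all probe sets and called at 0.05. Array depth cannot be given, and the number of arrays limits precision. Of the probe sets, 17928 had 1 gene symbol, 79 several and 2665 none, and members were matched by symbol. Single values were tested by a 2-sided exact permutation of the difference of means (the smaller tail doubled). An unpaired t-test, which the methods name for data other than the arrays, was run as an alternative (the methods' t-test). For differential expression on the arrays the methods name limma. On simulated data for IL-22-Fc over control, limma recovered 85% of 1.5-fold and 95% of 2-fold changes on day 7, and 71% and 97% at 24 h. Named genes were all members, the strongest that passed (up to 4) and failed (up to 2) in each pathway list, and the 10 genes most like the members in array-to-array deviations. The members and lists were chosen with earlier results of these data known. A lean control group of the design was not analysed here.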

Additional observations from a re-analysis of the deposited data

Results flagged for a closer look

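Of 72 gene-by-group sets of 4 or 5 arrays, 9 held an array far from the rest of its group, where chance alone flags about 1 in 20. In untreated skin replicate 5 was low for Ms4a2 (3.89) and Mrgprb1 (5.86), on the array with the high hair follicle and melanocyte sums. Hdc was high in replicate 1 of IL-22-Fc (9.12) and of VEGF (8.89) on day 7, and low in VEGF replicate 1 at 24 h (9.29). On day 7, Cpa3 was low in control replicate 5 (10.39). At 24 h, Cma1 was high in PDGF replicate 4 (10.03), Mcpt4 low in control replicate 2 (9.41) and Ms4a2 high in IL-22-Fc replicate 2 (5.95).

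The treatment effect differed between day 7 and 24 h by the limma interaction for 8 gene and treatment pairs, all lower on day 7. For VEGF these were Cpa3 (-0.84), Mrgprb1 (-0.71, a call lost in 14 of 19 single omissions), Cma1 (-0.62) and Mcpt4 (-0.55). For PDGF, whose day 7 arrays also had low 5′ control levels, they were Ms4a2 (-1.66), Fcer1a (-1.61), Mrgprb1 (-1.28) and Mcpt4 (-0.62), and 0 of these passed with the 5′ level in the fit.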

How the results depend on the processing

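No paired analysis was possible because replicate numbers follow accession order only. Over 2040 values of single genes under other settings, 107 lost a call, 44 gained one and 1889 stayed on the same side of the threshold. Of these 1889, 57 uncalled values took the other sign, none larger than 0.24 at first, and 0 called values changed sign. With the 5′ control level in the fit, PDGF on day 7 had 0 genes called (median -0.32) and its interaction 0. Leaving out the lower 50% of probe sets by mean level, which removes Ms4a2, gave a PDGF day 7 median of -0.47 and 1 call for the IL-22-Fc interaction, as did quantile normalization (1) and array weights (1). Array weights gave 5 calls and a median of -0.21 for 24 h controls over untreated skin. Fitting all 42 arrays together gave 2 calls for IL-22-Fc and 3 for VEGF on day 7, and 2 for the VEGF interaction. By the methods' t-test with adjustment, 2 genes passed for IL-22-Fc and 2 for VEGF on day 7, 1 for 24 h and 1 for day 7 controls over untreated skin. Asking also for a 1.5-fold change left 0 for IL-22-Fc and 0 for VEGF on day 7, 2 for day 7 controls over untreated skin and 3 over 24 h controls. Leaving out 1 array at a time gave 2 to 6 calls for IL-22-Fc and 2 to 6 for VEGF on day 7, 3 to 5 for 24 h controls over untreated skin (median -0.19 to 0.16, lowest without untreated replicate 5), 3 to 6 for day 7 over 24 h controls, and 0 to 3 and 2 to 5 for the IL-22-Fc and VEGF interactions. Centring each array on its median moved no count by over 1.5 times. The cause of the other shifts was not tested. Likeness and lists without untreated replicate 5, and lists with the 5′ level, were alternatives chosen after seeing the data.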
